A study of Saccharomyces cerevisiae with 9 samples.

Results

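The start codon windows described here are the stretches in which a scanning ribosome meets the AUG, taken from yeast transcripts with longer 5′ leaders. A window is the 15 bases before the start codon, the start codon and the 15 bases after it, 33 bases in all, read from a pool of synthetic Saccharomyces cerevisiae leaders. The leader is the stretch between the GGG at the 5′ end of each pool RNA and the start codon. Windows were taken from complete wild-type RNAs with a leader of at least 40 nt, and for each open reading frame (ORF) from its longest leader. This gave 1505 windows, 1 each for 1505 of the 2370 ORFs with a complete wild-type RNA in the deposited table. They came from 2277 RNAs whose leader was long enough. Their leaders reached up to 122 nt, with a median of 68 nt, and the quartiles lay at 52 and 91 nt. Just inside the length limit lay 33 ORFs with a leader of exactly 40 nt, and just outside it 27 ORFs whose longest leader was 39 nt. A further 718 ORFs, whose longest leader was 15 to 39 nt, served for comparison, and 147 ORFs had leaders too short to hold a window.

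The study probed a pool transcribed by T7 RNA polymerase with dimethyl sulphate (DMS), which modifies unpaired A and C. By the labels it has 9 libraries in 3 groups of 3 replicates. The first group received DMS as denatured RNA, heated to 95 °C, over 2 min. In the second it was denatured, refolded and exposed to DMS for 2 min at 30 °C, and in the third it was refolded and incubated in the same way with no DMS. The columns of coverage and mutations carry a replicate number and no group, and each number belongs to 3 libraries, so they were not used and no group is compared with another. The measurements below are the letters of the windows and the pairing that ViennaRNA predicts from them, and the depth of the libraries plays no part in them.

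In eukaryotic initiation the small ribosomal subunit, carrying eIF2 with GTP and the initiator tRNA, moves along the leader from the cap and stops where the tRNA anticodon pairs with an AUG. The bases beside the AUG affect how often it is chosen, and in yeast A at the third base before it is the main element of a favourable context, with a run of A before the AUG and U, C and U after it as the common pattern of highly expressed genes. Stable structure in a leader slows scanning, and yeast leaders are known for their richness in A. Positions are counted from the first base of the start codon as 1 and the base before it as −1, with no position 0.

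The windows closest to and farthest from the common pattern are shown first, because they show how far natural start sites spread. All sequences are given in DNA letters from the pool, 5′ to 3′, as the 15 bases before the start codon, the start codon and the first 12 bases after it. Capitals mark the start codon and the third base before it. The pool's own case is not kept in these lines, so an agt in them can be natural or can stand for a replaced ATG. In 6 windows, those of SNU13, a protein of the U4/U6.U5 tri-snRNP and of box C/D snoRNPs, MBF1, a transcriptional coactivator, YNK1, the nucleoside diphosphate kinase, FUR1, the uracil phosphoribosyltransferase, VMA8, a vacuolar ATPase subunit, and PIN3, all 7 context positions matched (A at −4 to −1, then T, C and T at 4 to 6).
SNU13: aaaactatattaAaaATGtctgccccaaac
MBF1: aaatcgtaaagaAaaATGtctgactgggat
YNK1: atcatccctggaAaaATGtctagtcaaaca
FUR1: agaaatctgcaaAaaATGtcttcggaacca
VMA8: gaaaaaggttcaAaaATGtctggtaataga
PIN3: tctgatatttcaAaaATGtctgcttcattg

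None of the 7 positions matched in 61 windows. Of the 5 named ORFs among them with the highest unpaired probability, 4 are shown, namely URM1, which encodes a ubiquitin-like protein, MST28, PRC1, the carboxypeptidase Y gene, and COX11, a copper-delivery factor for cytochrome oxidase. All 4 had G at −3, where a window with no match cannot have A by definition. Over all 1505 windows G stood at −3 in 295 (19.6%), T in 170 and C in 124.
URM1: aatagcaaaatcGggATGgtaaacgtgaaa
MST28: aggtatatattgGctATGcagacccctcca
PRC1: aagtatacatacGctATGaaagcattcacc
COX11: ttccctaatattGtcATGataagaatagtt

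The windows predicted to be most open and most paired are shown to set their letters beside each other. The 5 most open were those of MFA2, an a-factor gene, MRPL28, a mitochondrial ribosomal protein gene, NUP53, a nucleoporin gene, MIC10, a subunit of the mitochondrial contact site complex, and DSF1.
MFA2: taactaccaaccTtaATGcaaccgatcacc
MRPL28: caacgaagataaCacATGctggcacaaaca
NUP53: acatagctttttAaaATGgcagaccttcaa
MIC10: aagacaaaatatAccATGtccgaacaagca
DSF1: caaaaaaaaaaaAatATGacaaaatcagac

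The 5 most paired named windows were those of NPC2, a sterol-binding protein gene, SFT2, UCC1, an F-box protein gene, ROT1, an endoplasmic reticulum protein gene, and PUL4, a transcription factor gene.
NPC2: agcacgccttccAaaATGacccacagcttg
SFT2: acaagtgtggagAatATGagcgaggaacca
UCC1: gtgtgcaaacaaGagATGaatcagagcgat
ROT1: ttgcactttattActATGtggtcgaaaaag
PUL4: ttcgcaacaagcAgtATGgacagatctaag

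The factors that read the start codon are themselves translated from some of these windows. All 3 subunits of eIF2, which carries the initiator tRNA, were among the members (SUI2 for α, SUI3 for β and GCD11 for γ), with TIF5, which encodes the GTPase-activating eIF5, and GCD1 and GCD6, subunits of the nucleotide exchange factor eIF2B.
SUI2: ataatacaccaaAtaATGtccacttctcat
SUI3: ataagcacgcacGagATGtcctccgattta
GCD11: gcattagaggtaGacATGagtgacttacaa
TIF5: gttcactggtacAagATGtctattaatatt
GCD1: cctattgtcgtaGtcATGtcaattcaggct
GCD6: ctcataaggcaaAagATGgctggaaaaaag

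A stood at −3 in 916 of the 1505 windows (60.9%, 95% Wilson interval 58.4 to 63.3) and was more frequent there than at any other of the 15 positions before the start codon. From 15 to 5 bases before the start codon the share of A lay between 34.8% and 41.7%. Further upstream, from −40 to −16, it lay between 35.7% and 41.3%, with a mean of 38.4%. At the neighbours of −3 it was 41.3% at −4, 41.9% at −2 and 43.5% at −1. G stood at −3 in 295 windows (19.6%), T in 170 (11.3%) and C in 124 (8.24%). T was therefore less common at −3 than at any other of the 15 positions, where it lay between 22.3% and 30.2%, and so was C, which lay between 15.4% and 20.9% elsewhere. A purine at −3 was present in 1211 windows (80.5%, Wilson interval 78.4 to 82.4). The intervals cover counting error only and treat windows as independent. Windows of related genes are not, although no more than 1 pair of the 1505 was identical.

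**Figure D1:**
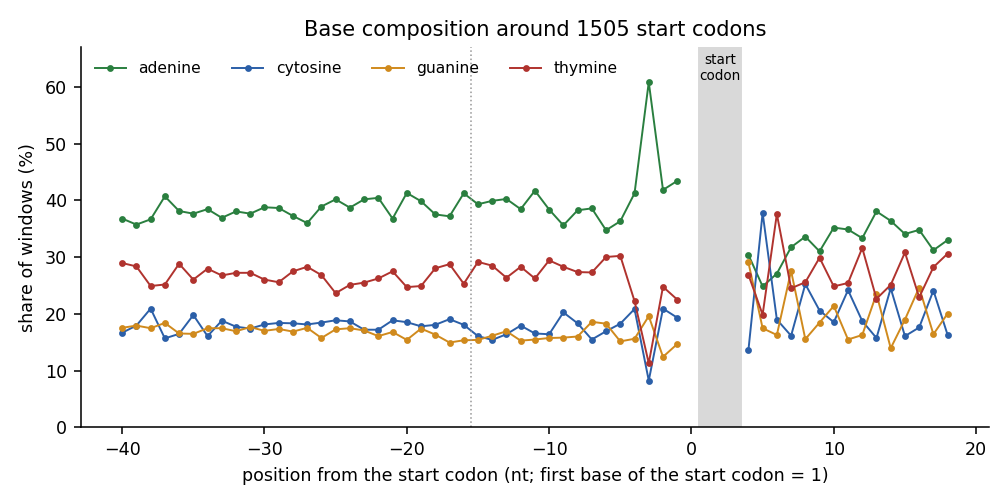
Share of windows (%) with each base, by position from the start codon in nt, over the 1505 windows with leaders of at least 40 nt; the dotted line marks the start of the window and the grey band the start codon. Adenine lies near 38.4% along the leader and reaches 60.9% at −3, where thymine falls to 11.3% and cytosine to 8.24%; after the start codon cytosine reaches 37.8% at position 5 and thymine 37.6% at position 6.

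The bases around −3 differed with the base that stood there. Where G stood at −3, A stood at −4 in 160 of 295 windows (54.2%, Wilson interval 48.5 to 59.8), against 381 of 916 windows with A at −3 (41.6%, 38.4 to 44.8) and 41 of 170 windows with T (24.1%, 18.3 to 31.1). At −2, A was found in 44.1% of the windows with A at −3 and in 31.8% of those with T (Wilson intervals 40.9 to 47.3 and 25.2 to 39.1). Windows with T at −3 matched 1.89 ± 1.16 of the other 6 context positions and those with A 2.36 ± 1.30 (SD, n = 170 and 916). Their codon 2 began with TC in 17.1% and 18.3% (n = 170 and 916), and the Wilson interval of the smaller group, 12.1 to 23.4, holds both. In 19 windows the base at −3 lay within a codon that replaces an upstream ATG, as T in 11 and as G in 6, which sets its neighbours as well.

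Few start sites had all bases of the common context. The number of matches out of 7 averaged 2.90 ± 1.44 (SD, n = 1505 windows). Of the windows, 212 (14.1%) matched 5 or more positions, 393 (26.1%) matched 3, 190 (12.6%) matched 1 and 61 (4.05%) none. A filled all 4 positions from −4 to −1 in 74 windows (4.92%) and none of them in 154 (10.2%). The run AAAA was the most frequent set of 4 bases before the start codon, ahead of AATA with 42 windows and TAAA with 41. A was also the most frequent base at each of these positions, from 41.3% at −4 to 60.9% at −3. Whether the run exceeds what these single shares give was not tested.

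Codon 2 was marked by C at its middle base and T at its last. C stood at position 5 in 569 windows (37.8%, Wilson interval 35.4 to 40.3), and T at position 6 in 37.6%. At the middle positions of codons 3 to 6 C lay between 24.1% and 25.2%, and at their last positions T lay between 29.9% and 31.6%. Serine codons led the list. TCT was codon 2 in 110 windows (7.31%), TCA in 79 (5.25%), AGT as a natural codon in 61 and TCC in 57 (3.79%), and 278 windows (18.5%, Wilson interval 16.6 to 20.5) had a codon beginning with TC. In codons 3 to 6 the letters kept a period of 3, with G more frequent at the first base (24.3%) than at the middle (15.3%) and the last (18.5%), C more frequent at the middle (24.5%) and T at the last (30.7%) than at the other positions of the codon. Over the 15 bases after the start codon A averaged 32.7% ± 12.6 and G with C 40.2% ± 11.3, against 40.6% ± 15.3 and 33.2% ± 12.8 in the 15 bases before it (SD, n = 1505).

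The part after the start codon is not natural coding sequence in every window. No window held an ATG besides its start codon, in capitals or lower case. Lower-case agt codons, which stand in the pool where other ATGs were, lay in 268 windows (17.8%): in 60 before the start codon and in 217 after it, 9 of them with such a codon on both sides. In 18 windows codon 2 itself was such an agt. Leaving out the windows with an agt moved none of the 17 summary values recomputed in the closing section beyond its 95% interval. A at −3 was then 62.4% and the unpaired probability of the window 0.479.

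Predicted pairing fell into 3 zones along the window. The unpaired probability, 1 minus the summed probability of all pairs of a base and so between 0 for always paired and 1 for always open, was 0.516 ± 0.169 over the 15 bases before the start codon, 0.412 ± 0.253 over the start codon and 0.446 ± 0.144 over the 15 bases after it (SD, n = 1505). Over all 33 bases it was 0.474 ± 0.106, with a range from 0.154 to 0.883. Within windows the bases before exceeded those after by 0.0698 on average (SD 0.219, SE 0.00564), and did so in 923 of 1505 windows (61.3%, Wilson interval 58.8 to 63.8). Values here are predictions, so the SD describes the spread over ORFs, the SE the precision of their mean, and neither an experimental error.

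The mean over all windows dropped inside the start codon. It was 0.556 at −1 and 0.561 at the A of the start codon, 0.371 at its T and 0.303 at its G, the lowest mean of any position. It rose through codon 2, from 0.343 at position 4 over 0.385 to 0.418 at position 6, and stayed between 0.442 and 0.488 from position 7 to 18. The start codon has the same letters in every window and other positions mix letters, so these means do not compare like bases. A alone had 0.650 at −1 and 0.561 in the start codon, and T alone 0.495 and 0.371. G alone had 0.343 at −1 and 0.303 in the start codon, and lower values of 0.254, 0.281 and 0.263 at positions 4 to 6. Codon 2 minus positions 7 to 18 of the same window gave −0.0797 on average (SD 0.317, SE 0.00817), and codon 2 was the less open in 910 of 1505 windows (60.5%, Wilson interval 58.0 to 62.9). This comparison was chosen after the profile had been seen.

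**Figure D2:**
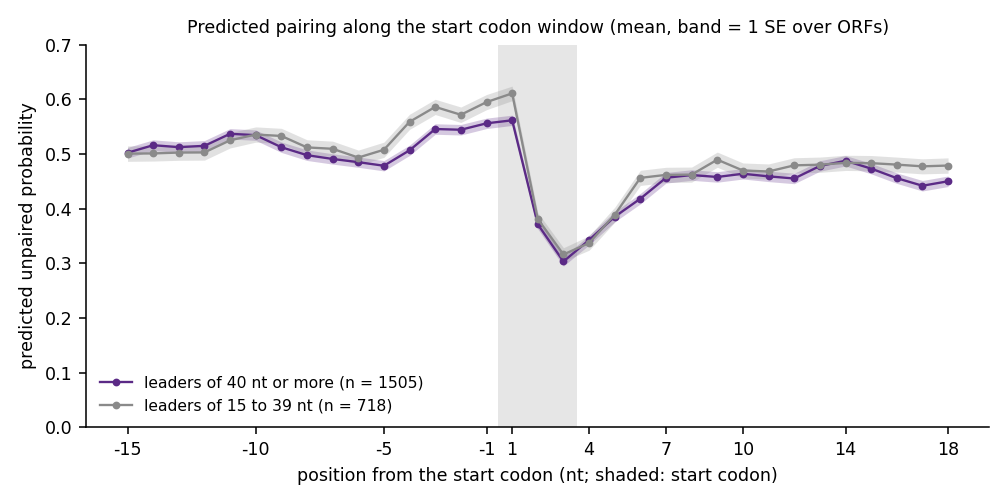
Mean predicted unpaired probability at each position of the window for the 1505 windows with leaders of at least 40 nt and for 718 ORFs with leaders of 15 to 39 nt; bands are 1 SE over ORFs and the shaded columns are the start codon. Both lines drop within the start codon, to 0.303 and 0.316 at its last base, and climb again over codon 2.

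A was the most open base in every zone of the window, and like bases also differed by position. A had a mean unpaired probability of 0.650 before the start codon, 0.561 in it, 0.519 in codon 2 and 0.599 at positions 7 to 18. G had 0.341 before the start codon, 0.303 in it, 0.264 in codon 2 and 0.325 later, and T had 0.443, 0.371, 0.331 and 0.407 in the same order. C had 0.472 before the start codon, 0.388 in codon 2 and 0.434 later. Each of the 4 bases was thus least open in codon 2. A G that followed a T had 0.292 before the start codon (654 bases) and 0.283 at positions 7 to 18 (770 bases), slightly below the 0.303 of the start codon's own G. These means pool bases of the same windows, which are not independent.

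In the single structure of lowest predicted energy, all 3 bases of the start codon were paired in 471 windows (31.3%, Wilson interval 29.0 to 33.7) and all 3 were unpaired in 259 (17.2%, 15.4 to 19.2). Of these 259, the middle base lay in a hairpin loop in 131, in a multiloop in 55, in an interior loop or bulge in 53 and outside every helix in 20. By mean unpaired probability of its 3 bases, the start codon was under 0.1 in 225 windows and above 0.9 in 71 (4.72%). The start codon of CLB4, a B-type cyclin gene with C at −3, was among the open ones with 0.983.

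Windows richer in A were predicted to be more open, whereas the start codon followed the A content only weakly. Across the 1505 windows the percentage of A and the mean unpaired probability of the 33 bases had a Pearson r of 0.388 (Spearman rho 0.395). Base composition enters both measures, and the start codon gives every window its own A. With 8 or fewer A the windows averaged 0.429 ± 0.102 (SD, n = 171), with 9 to 11 A 0.437 ± 0.0927 (n = 474), with 12 to 14 A 0.482 ± 0.0962 (n = 579) and with 15 or more 0.549 ± 0.104 (n = 281). For the start codon the r with A content was 0.0586. The bases before and after the start codon were nearly unrelated in openness (r = 0.0326), and so were the start codon and the bases before it (r = 0.0521). The percentage of A before the start codon and the openness of those 15 bases had an r of 0.436, and the same pair after it 0.318.

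**Figure D3:**
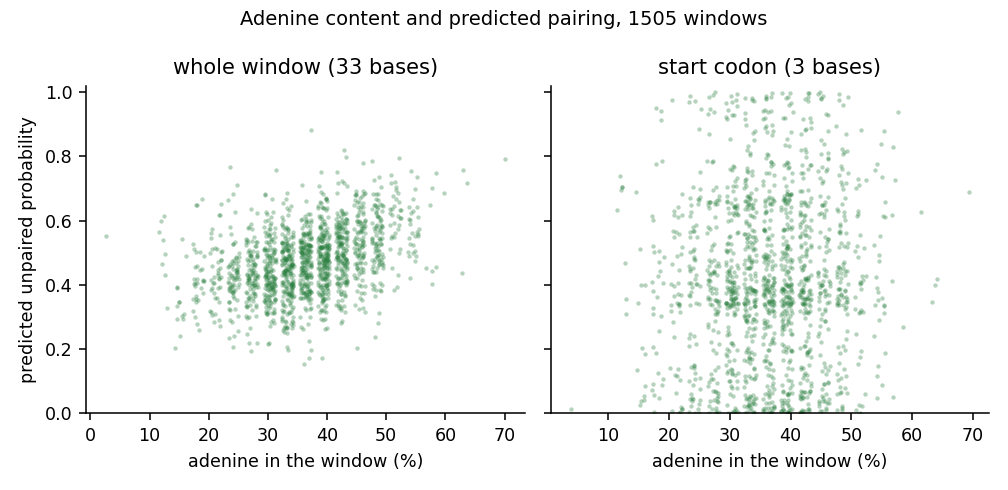
Percentage of adenine in the window against predicted unpaired probability of the whole window (left) and of the start codon alone (right), 1 point per window, 1505 windows, shifted slightly sideways at random so that points do not cover each other. The cloud rises with adenine on the left (r = 0.388) and is nearly flat on the right (r = 0.0586).

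The most open windows mostly held more A than the most paired ones, with 1 exception. MFA2 had the highest value, 0.883, with 36.4% A and 1 context match, followed by MRPL28 with 0.819, 42.4% A and C at −3. NUP53 had 0.797 with 42.4% A, MIC10 0.796 with 51.5% A and DSF1 0.791 with 69.7% A. The lowest value, 0.154 in NPC2, came with the same 36.4% A as MFA2 and with 4 matches. SFT2 had 0.171 and PUL4 0.196, also with 36.4% A, UCC1 had 0.171 with 39.4% A and ROT1 0.194 with 27.3% A. MFA2 was thus the exception, with less A than UCC1. In the start codon these 5 ran from 0.00135 in ROT1 to 0.0851 in SFT2. Over all windows the number of matches and the openness had an r of 0.146. The mean was 0.445 ± 0.0856 with no match (SD, n = 61) and 0.503 ± 0.137 with 7 (n = 6), and A counts among the matches. The 6 windows with all 7 matches spread widely, from 0.330 in PIN3 and 0.358 in VMA8 over 0.505 in FUR1, 0.566 in YNK1 and 0.577 in MBF1 to 0.684 in SNU13. Their start codons ran from 0.0227 in VMA8 to 0.979 in YNK1. By base at −3, the mean over the window was 0.485 ± 0.108 with A, 0.471 ± 0.112 with C, 0.459 ± 0.101 with T and 0.450 ± 0.0930 with G (SD, n = 916, 124, 170 and 295), differences that were small beside the spread of windows within each group.

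Taken over all windows together, the predicted partners lay about equally in the leader and after the start codon. The balance differed with leader length, as given below. Of the summed pair probability of the 33 bases, 44.7% went to the leader, 44.3% to the insert after the start codon, 6.63% to the constant stretch of 20 nt at the 3′ end, 3.51% to the start codon and 0.846% to the first GGG. For the start codon itself 51.1% went to the leader and 44.7% to the bases after it. Partners within 30 nt took 58.8% of a window's pair probability on average. Single windows could lean wholly to one side. The leader took 99.5% in UCC1 and 97.1% in ROT1, and 66.3% of the partners of NPC2 and 91.5% of those of SUI3 lay after the start codon. The constant stretch belongs to the pool RNAs and not to the natural transcripts, and the insert has a fixed length of 159 nt, so a longer leader leaves less coding sequence to pair with.

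**Figure D4:**
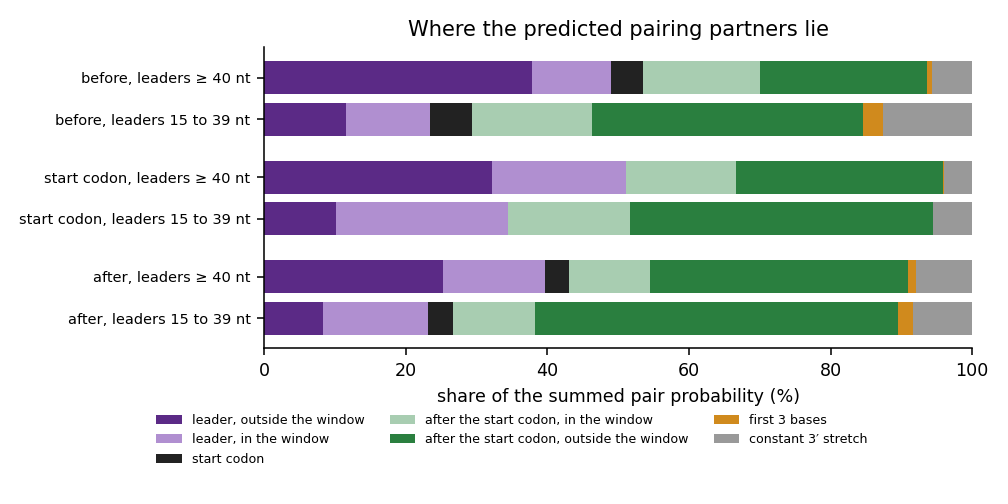
Share (%) of the summed predicted pair probability by the place of the partner, for the bases before the start codon, the start codon and the bases after it, with leaders of at least 40 nt and of 15 to 39 nt. In the start codons of longer leaders 51.1% of the partners lie in the leader, against 34.5% in shorter leaders.

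Beside ORFs with leaders of 15 to 39 nt the windows differed little at −3 and were slightly more paired. A at −3 was found in 456 of the 718 ORFs with shorter leaders (63.5%), so that the share was 2.65 percentage points lower with longer leaders, and the 95% Newcombe interval of −6.89 to 1.69 includes 0. C stood at position 5 in 37.8% against 42.5%, a difference of −4.67 points (Newcombe interval −9.05 to −0.329). The number of context matches was 2.90 against 3.01, a difference of −0.111 (SE 0.0653). T made up 26.1% of the 15 bases before the start codon against 22.4%, a difference of 3.79 points (SE 0.573), and GC was lower by 2.66 points (−2.66, SE 0.587). The unpaired probability of the window was 0.474 against 0.489, a difference of −0.0146 (SE 0.00467). The drop across the start codon was present in both, and the difference between the bases before and after was 0.0698 with longer and 0.0692 with shorter leaders. Only the comparisons of A at −3 and of the window's unpaired probability were planned in advance. Position 5 is a single position out of all those of the window. No test was run over windows, so none of these differences is called particular to longer leaders.

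Among the 1505 windows themselves, openness fell little with leader length, and the share of A at −3 did not follow it in order. The window averaged 0.484 ± 0.110 (SD, n = 576) for leaders of 40 to 59 nt, 0.474 ± 0.0968 (n = 393) for 60 to 79 nt, 0.464 ± 0.109 (n = 278) for 80 to 99 nt and 0.465 ± 0.103 (n = 258) for 100 to 122 nt. A stood at −3 in 63.9%, 64.6%, 50.4% and 59.7% of these windows, with Wilson intervals of 59.9 to 67.7, 59.8 to 69.2, 44.5 to 56.2 and 53.6 to 65.5. The low value belongs to leaders of 80 to 99 nt. Its interval does not overlap those of the leaders under 80 nt but does overlap that of the leaders of 100 to 122 nt. The comparison of length groups was not among those planned in advance. The share of partners in the leader was 36.6%, 45.3%, 52.8% and 52.7% in the same order, and that after the start codon 51.5%, 46.0%, 36.6% and 34.4%. The insert has a fixed length, so the leader also took up more of it in this order. The cause of the differences in share was not tested.

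The same 33 bases could be read in more than 1 leader. For 994 ORFs a shorter leader of at least 15 nt carried an identical window, shorter by 29 nt in the median. The mean hardly moved, from 0.472 with the shorter to 0.471 with the longer leader (difference −0.00158, SE 0.00262, SD 0.0827), and 492 windows were more open and 502 less open with the longer leader. Single windows did move. The size of the change had a median of 0.0387 and exceeded 0.1 in 198 ORFs (19.9%). The values with shorter and longer leader had a Pearson r of 0.654 across the 994 ORFs, which share the window and most of the coding part.

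**Figure D5:**
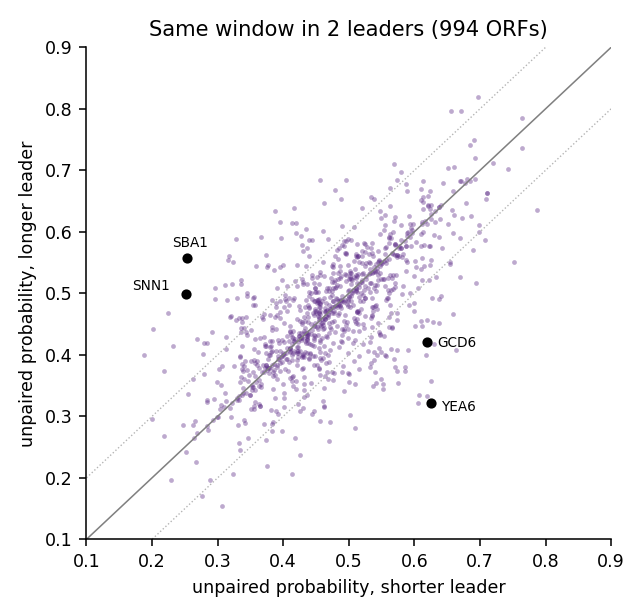
Mean predicted unpaired probability of the same 33 bases in the shorter and in the longer leader of 994 ORFs, 1 point per ORF; the solid line marks equal values and the dotted lines a difference of 0.1. Points scatter on both sides of the line, with YEA6 and GCD6 below it and SBA1 and SNN1 above it.

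Among genes with a symbol, the widest falls came with YEA6, a mitochondrial NAD carrier gene, UTP23 and RCL1, both genes of ribosomal RNA processing. In YEA6 the window went from 0.625 in a leader of 17 nt to 0.322 in one of 56 nt, and 97.9% of its partners in the longer RNA lay in the leader. In UTP23 it went from 0.619 at 30 nt to 0.333 at 43 nt, and in RCL1 from 0.605 at 19 nt to 0.321 at 54 nt. The widest rises came with SBA1, which encodes the Hsp90 co-chaperone p23, from 0.254 at 30 nt to 0.557 at 46 nt. SNN1 went from 0.252 at 68 nt to 0.499 at 96 nt, and FRM2 from 0.387 at 28 nt to 0.634 at 121 nt. Because the insert has a fixed length, the RNA with the longer leader also ends earlier in the coding part, and the surroundings differ on both sides.

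A pair of genes of the DUP240 family of membrane proteins, UIP3 and PRM8, shared the window itself, with leaders of 98 nt in both, and is shown because the same letters gave different predictions.
UIP3: agatatcaattcAacATGcaaaccccttca

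In UIP3 the window had an unpaired probability of 0.629, and 70.9% of its partners lay in the leader. In PRM8 it had 0.366, with 63.0% of the partners after the start codon. The bases before the start codon were alike (0.533 and 0.521), and the 15 bases after it had 0.720 in UIP3 and 0.179 in PRM8.

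The windows of the initiation factors sat near the middle of all windows, while their start codons spread over most of the range. Of 12 listed genes of start codon selection 7 had a complete wild-type RNA among those analysed and 6 were members, with a median window value of 0.475 beside 0.472 over all 1505 windows. GCD11 had 0.560, SUI2 0.508, TIF5 0.502, GCD1 0.448, SUI3 0.440 and GCD6 0.422. In the start codon GCD11 (0.749) and SUI3 (0.705) were open, TIF5 had 0.308, and GCD6 (0.0922), GCD1 (0.0918) and SUI2 (0.0555) were nearly closed. A stood at −3 in 3 of the 6 (beside 60.9% over all windows), SUI2, TIF5 and GCD6, each with 5 context matches, and G in SUI3, GCD11 and GCD1, each with 3. Codon 2 began with TC in 4 of the 6, beside 18.5% over all windows. The window of GCD6 was less open in its leader of 50 nt than in that of 22 nt (0.422 against 0.620), and that of SUI2 less open at 121 nt than at 95 nt (0.508 against 0.605). Those of SUI3 (0.440 at 65 nt against 0.351 at 31 nt) and TIF5 (0.502 at 106 nt against 0.451 at 82 nt) went the other way, and GCD11 hardly moved (0.560 against 0.576). The 6 listed eIF3 genes, all with Crick-strand names, had no complete wild-type RNA among those analysed. The RNAs analysed are nearly all of Watson-strand ORFs, and why these genes are absent was not tested. Of 7 listed genes with alternative starts 2 had a complete wild-type RNA, with leaders under 40 nt. Of 11 listed genes of eIF4 factors and helicases 4 had a complete wild-type RNA, and CAF20, which encodes an eIF4E-binding protein, was the 1 member, with G at −3, 1 match and 0.374, against 0.574 in its leader of 24 nt.

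Among the other lists, 7 of 17 listed glycolytic genes had a complete wild-type RNA, and 3 of these were members. All 3 had A at −3 (beside 60.9% over all windows) and lay above the median openness of all windows. GLK1, the glucokinase gene, had 0.525 and TDH1, a glyceraldehyde-3-phosphate dehydrogenase gene, 0.667, with a median of 0.584 for the list. Of 139 ribosomal protein genes in the gene table, 83 had a complete wild-type RNA among those analysed, and 18 of these had a leader of at least 40 nt. A stood at −3 in 11 of them (beside 60.9% over all windows), the median of matches was 3, as over all windows, and 13 lay above the median openness. RPS21A was the most open of them with 0.678, and RPP0, which encodes the stalk protein P0, the least with 0.356, where the bases after the start codon had 0.109. The 4 of 13 listed cyclin genes with a complete wild-type RNA were all members and ran from 0.479 in CLB4 over 0.487 in PCL2 and 0.516 in PCL9 to 0.545 in PCL1, the last 3 being cyclins of the Pho85 kinase. These lists hold few members and their counts describe those genes alone.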

How the data were processed

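The deposited data are 1 table of 1048575 positions, in file order, from 5762 pool RNAs. The authors deposited, per the file headers, the name of each RNA and its reference base as a letter, the other values being 3 columns of coverage and 3 named as mutation rates. None of these 6 columns was analysed, their names carrying no group. The submitters' processing notes list STAR and SAMtools, with no version or role. The genome build is not given in the sources used here, so no genome coordinates are printed. The last RNA stops after 73 of 182 positions and was left out. The table thus ends inside an RNA and may not hold the whole pool. ORFs without an RNA here may therefore be part of the pool, and counts of ORFs refer to this table.

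Letters were joined per RNA. Wild-type RNAs have an ORF name and a number. Of 1505 members, 1435 (95.3%) are named on the Watson strand, 1461 were found by locus tag among RefSeq's genes for assembly R64, and 1368 have a gene symbol. Each complete RNA of 182 nt was folded whole with ViennaRNA 2.7.2 at 30 °C, the incubation temperature per the labels. Energy parameters were the defaults, with no reactivity data, no protein and no adjustment for the salt of the probing. Functions were tested on simulated data.

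Shares have 95% Wilson intervals. Means have the SD or SE over ORFs. No p-values are given, since windows are not replicates. Named genes were the 5 highest and 5 lowest by openness, those with 7 matches, the 5 most open of those with none, the 3 widest rises and falls between leaders, members of 5 lists, and the extremes of the ribosomal and glycolytic lists, among members with a symbol. Genes named for splice letters or stop codons, and the pair sharing a window, were chosen after their values were seen. Members and lists were chosen with earlier results of these data known. Among the windows with no match, 1 named by this rule is not reported here.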

Additional observations from a re-analysis of the deposited data

How the results depend on the processing

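The 17 summary values were recomputed under up to 15 other settings, 210 values in all. Of these, 181 stayed within the 95% interval of the reported value, 28 moved beyond it and 1 turned its sign. Leaving out windows with splice letters, and every setting for the openness of codon 2 minus later bases, were added after seeing the data. Most moves came with the 70 Crick-strand ORFs, 64 of which have a suffixed ORF name (51 of the 1435 Watson-strand ORFs do). There A at −3 was 52.9%, a purine 68.6%, A and T before the start codon 39.6% and 24.1%, A after it 28.9%, TC in codon 2 27.1% and the matches 2.57. The window had 0.490, the start codon 0.445, the difference before minus after 0.0939, partners in the leader 42.2% and after the start codon 47.0%, r with A content 0.343, and the change from shorter to longer leader 0.0138. The difference from shorter leaders was −11.2 points for A at −3 (interval −28.7 to 8.05), and for the window it turned to 0.0164 (interval −0.0261 to 0.0588). Both intervals, over 70 and 39 ORFs, include 0 and the reported value. The cause was not tested. Folding at 37 °C gave 0.493 for the window and 0.436 for the start codon. The insert folded alone gave 46.6% and 49.8% of partners in the leader and after the start codon, since the ends are absent, and an r of 0.344. Leaders of at least 60 nt gave 0.469 for the window and partners of 49.6% and 39.9%, leaders of at least 30 nt 42.3% and 46.4%, and the shortest leader of at least 40 nt 41.3% and 47.9%. With 10 bases on each side the window had 0.468. No paired analysis was possible because each replicate number in the value columns is shared by 3 libraries and no value column was used. The structures are predictions, and whether the probed RNAs fold in this way was not tested.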

Other observations

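Some windows hold, within the 15 bases after the start codon, the letters of a yeast 5′ splice site. No intron annotation was used here, so these matches were not compared with annotated introns. With the replaced ATGs restored, GTATGT, the common sequence at the 5′ end of yeast introns, lay on the sense strand within the 15 bases after the start codon in 12 of 1505 windows (0.797%) and within the 15 bases before it in 1 (0.0664%). In ORFs with leaders of 15 to 39 nt the counts were 17 of 718 (2.37%) and 1 (0.139%). The 11 named genes were RPL35A, RPS24A, MUD1, UBC8, TMA20, DCN1, SMD2, YSF3, TAF14, TOM6 and PSP2, and the last of the 12 was the unnamed ORF YPR170W-A. In 4 of them, RPL35A, RPS24A, DCN1 and YSF3, the letters began at position 4. In the pool the ATG inside the motif is replaced, so that these RNAs read GTAGTT there, as shown for both ribosomal protein genes.
RPL35A: gacagtatattcGaaATGgtagttttgaga
RPS24A: atagattaagcaGaaATGgtagtttaaaaa

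With replaced ATGs restored, an in-frame stop codon lay in codons 2 to 6 of 6 windows, those of RPL35A, RPS24A, UBC8, DCN1, SMD2 and RPL30. RPL30 is known for an intron that begins just after its start codon, and its window lacks GTATGT. The bases after the start codon are therefore not coding sequence in every member. Without the 12 windows holding GTATGT the reported summary values stayed within their intervals.

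As written in the pool, 65 windows (4.32%) had an in-frame stop in codons 2 to 6, and in 61 of these the restored sequence had none. In 23 of the 61 a T followed by the replacing agt read TAG in frame, and in 42 the last letter of an agt began the stop codon. In-frame agt codons after the start codon were found in 82 windows. In leaders of 15 to 39 nt, 53 of 718 windows (7.38%) had such a stop as written and 12 (1.67%) after restoring.

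Stop codons just before the start codon were about as frequent in its frame as in the others. With ATGs restored, the 4 codons that end closest to the start codon held a stop in 340 windows in its own frame (22.6%, Wilson interval 20.5 to 24.8), and in 371 (24.7%) and 342 (22.7%) in the others. A stop directly before the start codon was found in 42 windows (2.79%). Such a stop needs T at −3, where T stood in 11.3% of windows. The counts by frame were not adjusted for this, so they cannot decide whether a frame is preferred. A run of at least 6 A lay in the 15 bases before the start codon in 49 windows (3.26%) and a run of at least 6 T in 20 (1.33%), against 14 (1.95%) and 3 (0.418%) of 718 with shorter leaders.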
